A study of Homo sapiens with 6 samples.

Results

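A set of 8 long non-coding RNAs (lncRNAs) was followed through the m6A peak lists of U2OS cells: MALAT1, NEAT1, NORAD (listed under its older symbol LINC00657), HOTAIR, PVT1, TUG1, SNHG16 and DANCR. They were chosen by name, with earlier results of these data known. Every row of the 3 peak lists assigned to one of these 8 genes was taken. This gave 12 of 15272 peaks in control, 12 of 13147 with siRNA 1 and 9 of 13310 with siRNA 2. The lists named 10859 genes in all, of which 9618 had a peak in control, 8417 with siRNA 1 and 8609 with siRNA 2. All 8 lncRNAs had a peak in the control list, 7 with siRNA 1 and 5 with siRNA 2. With all 8 in control, the siRNA counts could only stay level or fall. MALAT1, NORAD, PVT1, TUG1 and SNHG16 had a peak in all 3 lists.

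U2OS, a human bone osteosarcoma line with the genotype WT and the cell type epithelia cells in the labels, received a control siRNA or one of a pair of siRNAs against YTHDF2, labelled DF2 siRNA #1 and DF2 siRNA #2 (here siRNA 1 and siRNA 2). The labels' protocols describe cytoplasmic RNA that was fragmented to about 100 nt and then precipitated with an anti-m6A antibody, and the labels' molecule field reads total RNA. Each of the 3 conditions had 1 input and 1 m6A-IP library and 1 merged peak list, so there were no replicates, and neither an SD nor a test could be given. Each peak carries the authors' score, fold enrichment and −log10 FDR (false discovery rate). Median scores of the control, siRNA 1 and siRNA 2 lists were 158, 33 and 99, so a peak is given by its percentile within its own list, and percentiles of different lists stand side by side and measure no change. Read depths behind the peaks are unknown, RNA levels were not measured by these lists, and in these bulk lists fewer cells with a methylated RNA and less of it per cell cannot be told apart. The labelled cell type was therefore not checked against marker RNAs. YTHDF2, the targeted gene, had a peak at score percentile 99.1, 84.3 and 66.6 of the control, siRNA 1 and siRNA 2 lists, which says nothing of the level of its RNA.

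N6-methyladenosine (m6A) is placed on nuclear transcripts by the METTL3-METTL14 methyltransferase, mostly at adenosines within a short consensus, and is read by proteins of the YTH family. YTHDF2 is a cytoplasmic reader that recruits the CCR4-NOT deadenylase and shortens the life of the RNAs it binds. Long non-coding RNAs carry the mark as well, and MALAT1 and NEAT1, which act in the nucleus, are among the classic examples.

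Start regions of 300 bases (250 before to 50 after a RefSeq transcript start, GRCh38.p14) were compared with the peaks of these lncRNAs. The table of start windows used here held 6 for DANCR, MALAT1, SNHG16, NORAD and TUG1, and none for NEAT1, HOTAIR and PVT1. A peak reached 2 of the 6, one at a second start of MALAT1, in the control list alone, and one at the NORAD start, in all 3 lists. By the RefSeq gene spans, a siRNA 1 peak of NEAT1 also crossed that gene's 5′ end, from 24 bases before it. The MALAT1 and NORAD windows are shown because they mark the difference between a peak seen in one list and a peak that began at the same place in every list. The MALAT1 window lies on the plus strand at chr11:65498795-65499094, and the NORAD window on the minus strand at chr20:36050911-36051210. Both read 5′ to 3′ on the RNA's strand, with the bases inside a peak in capitals:
MALAT1: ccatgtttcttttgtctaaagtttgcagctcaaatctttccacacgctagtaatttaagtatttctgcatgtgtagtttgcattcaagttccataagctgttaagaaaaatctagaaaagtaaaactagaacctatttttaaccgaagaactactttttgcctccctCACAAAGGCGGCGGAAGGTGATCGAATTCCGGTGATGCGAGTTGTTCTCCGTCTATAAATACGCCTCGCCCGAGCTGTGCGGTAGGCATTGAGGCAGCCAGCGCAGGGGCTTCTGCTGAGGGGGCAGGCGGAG
NORAD: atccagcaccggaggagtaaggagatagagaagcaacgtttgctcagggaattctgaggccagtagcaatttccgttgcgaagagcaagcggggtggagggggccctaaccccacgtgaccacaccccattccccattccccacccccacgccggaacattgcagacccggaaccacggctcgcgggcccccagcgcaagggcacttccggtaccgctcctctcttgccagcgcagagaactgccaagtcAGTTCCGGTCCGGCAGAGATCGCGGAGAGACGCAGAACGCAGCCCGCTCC

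In the MALAT1 window the control peak covered the last 133 bases, 83 before the start at 65499045 and 50 after it. The capitals were 61.7% G and C, against 46% of the whole window and a median of 58.7% over all 35116 start windows. The letters TATAAA stood once on the RNA strand, inside the capitals and 30 bases before the start. On that strand they occur in 7.33% of all start windows, and on the other in 5.83%. In the NORAD window the last 50 bases, 68% G and C, lay in the peak of each list. The m6A consensus was searched on both strands as GGACT, with a changed last base as GGACA or, likewise, as GGACC, and with a changed first base as AGACT. None of these 4 spellings had a match on the RNA strand in either capital stretch. On the other strand GGACC matched once in NORAD. Among all windows, the last 133 bases held GGACT in 12.4%, GGACA in 11.6%, GGACC in 13.1% and AGACT in 9.58% on the RNA strand, and the last 50 bases held them in 4.9%, 4.86%, 5.39% and 4.23%. No match says only that these letters are not in these stretches, and the rest of both peaks was not searched. For comparison, a peak of the same gene reached 21.1% of the start windows of genes with a control peak, 25.8% with siRNA 1 and 22.8% with siRNA 2.

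MALAT1, an abundant RNA of nuclear speckles, held one of the highest scores of every list and also a high-scoring control peak that was absent from both siRNA lists. The gene spans 65497738 to 65506516 on the plus strand of chromosome 11 (hg38), 8779 bases in RefSeq. One peak covered the same 800 bases in all lists, 65499962 to 65500761, positions 2225 to 3024 from the RefSeq 5′ end. Its score was 15978 in control (rank 6), 2028 with siRNA 1 (rank 21) and 3417 with siRNA 2 (rank 77), percentiles 99.97, 99.85 and 99.4. Its fold enrichment over input was 38.1, 68.8 and 36.2 in the same order, fold percentiles 77.2, 92.7 and 75.9. The peak thus stood near the top of every list by score and lower by fold, most so in the control and siRNA 2 lists.

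The second MALAT1 peak of the control list lay 5′ of it and covered 400 bases, 65498962 to 65499361 (positions 1225 to 1624), which includes the start shown above. Its score of 3202 gave rank 334 and percentile 97.8. Its fold of 16.8 lay at percentile 44.4 and its −log10 FDR of 2.58 at percentile 27.4. Of the 335 control peaks with a score of 3202 or more, this was the only one that overlapped a peak in neither siRNA list, and 4 of them overlapped none with siRNA 2. It was also among the weakest of them by fold, since 7 of the 335 had a fold at or below its own and their median was 57.5. Ranked by fold, the control decile where it lies had 14.1% of peaks with no overlap in either siRNA list, and ranked by FDR its decile had 38.5%, against 0.851% (13 of 1527) in the top decile by score. By score its absence was rare, and by fold or FDR it was less so. Its fold decile lacked a siRNA 1 overlap in 29.8% and a siRNA 2 overlap in 20.9%, and its FDR decile in 53.7% and 45%. Among all control peaks these shares were 32.9% and 26.6%.

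NEAT1, the RNA scaffold of paraspeckles and a neighbour of MALAT1, had a high-scoring control peak and no peak at all with siRNA 2. The gene spans 65422798 to 65445540 on the plus strand of chromosome 11, 22743 bases, and apart from 24 bases upstream of its start, all NEAT1 peaks lay in the first 10.4% of it. The control peak covered 800 bases, 65424174 to 65424973 (positions 1377 to 2176), with score 2271 (percentile 95.7), fold 24.2 (percentile 59.7) and −log10 FDR 4.40. With siRNA 1 a peak of 800 bases lay 200 bases further 3′, 65424374 to 65425173, and shared 600 bases with it. That peak had score 150 (percentile 85), fold 18.6 (percentile 58.4) and −log10 FDR 3.94. A second siRNA 1 peak covered 200 bases, 65422774 to 65422973, beginning 24 bases before the RefSeq start. It was near the FDR limit of the lists, with fold 8.56, −log10 FDR 1.41 and score percentile 48. The 3′ 20367 bases of the gene carried no peak in any list. Of the 663 control peaks that scored 2271 or more, 10 overlapped no siRNA 2 peak and 2, of MALAT1 and DDX21, overlapped none with either siRNA. MALAT1 and NEAT1 are known as mostly nuclear RNAs, and both had peaks in RNA described as cytoplasmic. The lists hold no measure of nuclear RNA in the preparation.

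HOTAIR, transcribed antisense within the HOXC cluster and known for its link to Polycomb repression, had a middling peak near its 3′ end. The gene spans 53962312 to 53974954 on the minus strand of chromosome 12, 12643 bases. In control 400 bases were covered, 53962510 to 53962909 (positions 12046 to 12445, that is 95.3% to 98.4% along the gene). Score 174 put it at percentile 51.8 and fold 14.2 at percentile 37.1, with a −log10 FDR of 2.41. With siRNA 1 the 5′ 200 bases of it were called, with score 18 (percentile 33.1), fold 8.15 (percentile 21.8) and −log10 FDR 1.44, and with siRNA 2 none. At an FDR under 0.01 the siRNA 1 peak dropped out, which left HOTAIR in the control list alone. HOXC11, on the opposite strand, had peaks that reached into the 5′ end of the HOTAIR span by 2, 202 and 2 bases in the control, siRNA 1 and siRNA 2 lists. They shared 0 bases with the HOTAIR peaks, so the HOTAIR values do not rest on them.

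**Figure D1:**
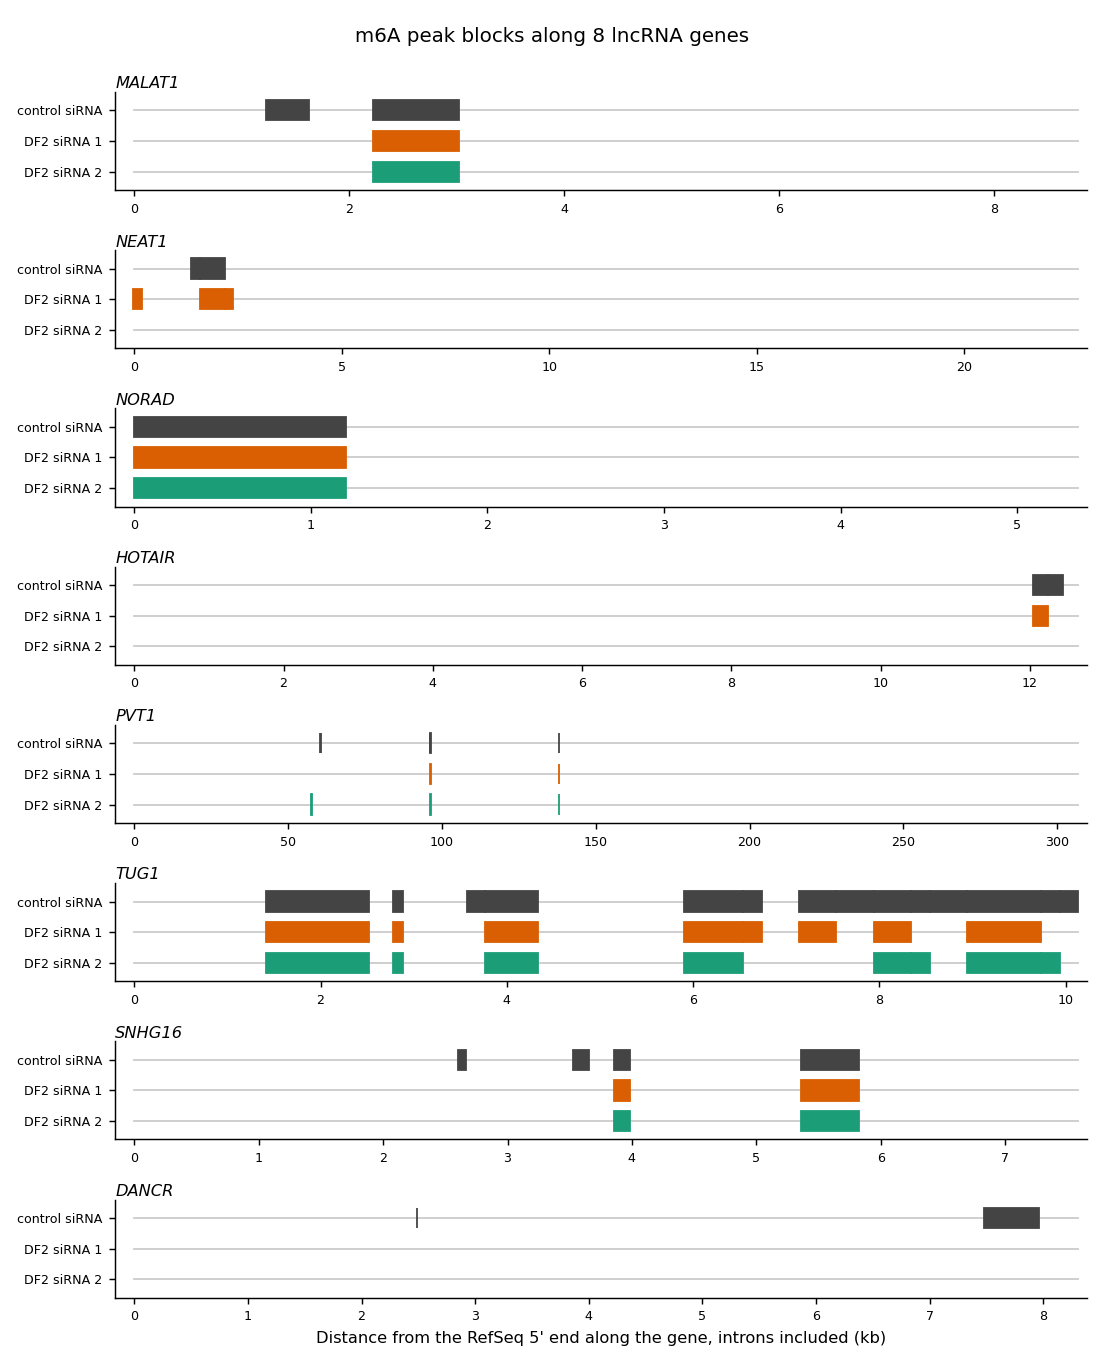
Covered blocks of the m6A peaks along the 8 lncRNA genes, with distance from the RefSeq 5′ end in kb on the x axis (introns included, each gene on its own scale) and 1 row per list. The NORAD block and the 800-base MALAT1 block are the same in all 3 rows, the 5′ MALAT1 block is in the control row alone, and NEAT1, HOTAIR and DANCR have no block with siRNA 2.

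NORAD, a cytoplasmic RNA with many binding sites for PUMILIO proteins, had a peak that was identical in place in every list. It covered 1200 bases, 36049761 to 36050960 on the minus strand of chromosome 20, the first 22.5% of the gene (36045618 to 36050960, 5343 bases). The score was 4177 in control, 970 with siRNA 1 and 4726 with siRNA 2, ranks 181, 113 and 28 and percentiles 98.8, 99.1 and 99.8. The fold was 59.1, 139 and 118, percentiles 91.9, 98.6 and 98.7, and the −log10 FDR 14.1, 42.3 and 28.8. By score and by fold alike, NORAD stood in the top decile of each list. No other base of the gene was covered, which left the 3′ 4143 bases without a peak.

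TUG1, known for a role in gene repression and listed by RefSeq as protein_coding, had the longest covered stretch, and its peaks covered fewer bases in more pieces in both siRNA lists. The gene spans 30969265 to 30979395 on the plus strand of chromosome 22, 10131 bases. Peaks covered 5793 bases (57.2% of the span) in control, 4200 (41.5%) with siRNA 1 and 4000 (39.5%) with siRNA 2, in 3, 5 and 4 peaks. Of these bases, 3600 were covered in all 3 lists and 1193 in control alone, and none was covered with an siRNA and not in control.

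The first TUG1 peak, 30970677 to 30972144 (1200 covered bases), was identical in all lists. Its score percentile was 94.2 in control, 92.2 with siRNA 1 and 90.9 with siRNA 2, its fold 62.7, 83.5 and 61.8, and its −log10 FDR 15.3, 29.2 and 15. It was the strongest TUG1 peak by score, fold and FDR in each list. The second peak covered 1600 bases in control (30972835 to 30976002, score percentile 86.5, fold 40.6). With siRNA 1 it covered 1400 bases (30973035 to 30976002, percentile 76.3, fold 31.5), and with siRNA 2 1200 bases (30973035 to 30975802, percentile 82.8, fold 34.3). The siRNA peaks thus lacked 200 bases at the 5′ end, and with siRNA 2 another 200 at the 3′ end. Peak widths in these lists mostly go in steps of 200 bases, so each difference is the smallest usual one, without a replicate.

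The 3′ part of TUG1 differed most in how it was divided. In control 1 unbroken peak of 2993 bases, 30976403 to 30979395, ran to the RefSeq 3′ end, with score percentile 81.4 and fold 38.6. With siRNA 1 the same stretch held 3 peaks of 400, 400 and 800 bases, with folds of 10.1, 16.3 and 34.4 and score percentiles of 42, 66.8 and 76.6. With siRNA 2 it held 2 peaks of 600 and 1000 bases, with folds of 16.5 and 32.1 and percentiles of 73.9 and 77.7. In each siRNA list the piece nearest the 3′ end, from 30978203, was the strongest. The last 193 bases of the gene were covered in control alone. The lists also held short entries named TUG1_2 and TUG1_4 in all 3 lists and TUG1_1 in control, all inside TUG1 peaks, and these were not counted as TUG1 peaks.

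SNHG16, a host gene of small nucleolar RNAs, had a peak shared by all lists and a second one in control alone. The gene spans 76557764 to 76565348 on the plus strand of chromosome 17, 7585 bases. The shared peak, 76561620 to 76563586, covered 600 bases. Its score was 1912, 154 and 1284 in control, siRNA 1 and siRNA 2, percentiles 94.1, 85.5 and 95.7, and its fold 22.4, 21.4 and 20.1, percentiles 56.4, 63.9 and 53.4. Like the MALAT1 peaks, it ranked higher by score than by fold. The control peak on its 5′ side, 76560366 to 76561419, covered 200 bases with score 497 (percentile 72.3), fold 11.1 (percentile 25.3) and −log10 FDR 1.47. It lay near the FDR limit, and in the control decile with the weakest FDR 62.6% had no overlap in either siRNA list.

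DANCR, another snoRNA host, known for repressing differentiation, had the weakest control peak of the 8 and none with either siRNA. The gene spans 52712394 to 52720697 on the plus strand of chromosome 4, 8304 bases. The 485 covered bases lay between 52714882 and 52720351, 484 of them in the 3′ part of the gene and 1 at 52714882. Its score of 7 stood at percentile 6.91, its fold of 5.14 at percentile 5.67 and its −log10 FDR was 1.47. In the lowest decile of control peaks by score 82.1% had no overlap in either siRNA list, and in the lowest decile by fold 81.3%. The absence of DANCR was thus the common outcome for a peak of its rank.

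PVT1, the lncRNA gene next to MYC, had a spliced peak that was shorter in both siRNA lists. The gene spans 127794524 to 128101256 on the plus strand of chromosome 8, 306733 bases, of which 0.261% was covered in control. In control, 800 bases in 7 blocks were covered between 127854784 and 127932677, with score 702 (percentile 79.3), fold 26.9 and −log10 FDR 5.69. With both siRNAs the peak began at 127890612 and covered 600 bases, all inside the control peak. Its score percentile was 68.4 with siRNA 1 and 75.4 with siRNA 2, its fold 29.2 and 34.2, and its −log10 FDR 9.93 and 7.76. The 5′ 200 covered bases of the control peak were thus seen in control alone. With siRNA 2 alone a weak peak of 200 bases, 127852004 to 127852203, was listed, with score 6 (percentile 3.98), fold 5.57 and −log10 FDR 1.84. An entry named PVT1_3, 95 bases inside the shared blocks, was listed in all 3 lists and not counted as PVT1.

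**Figure D2:**
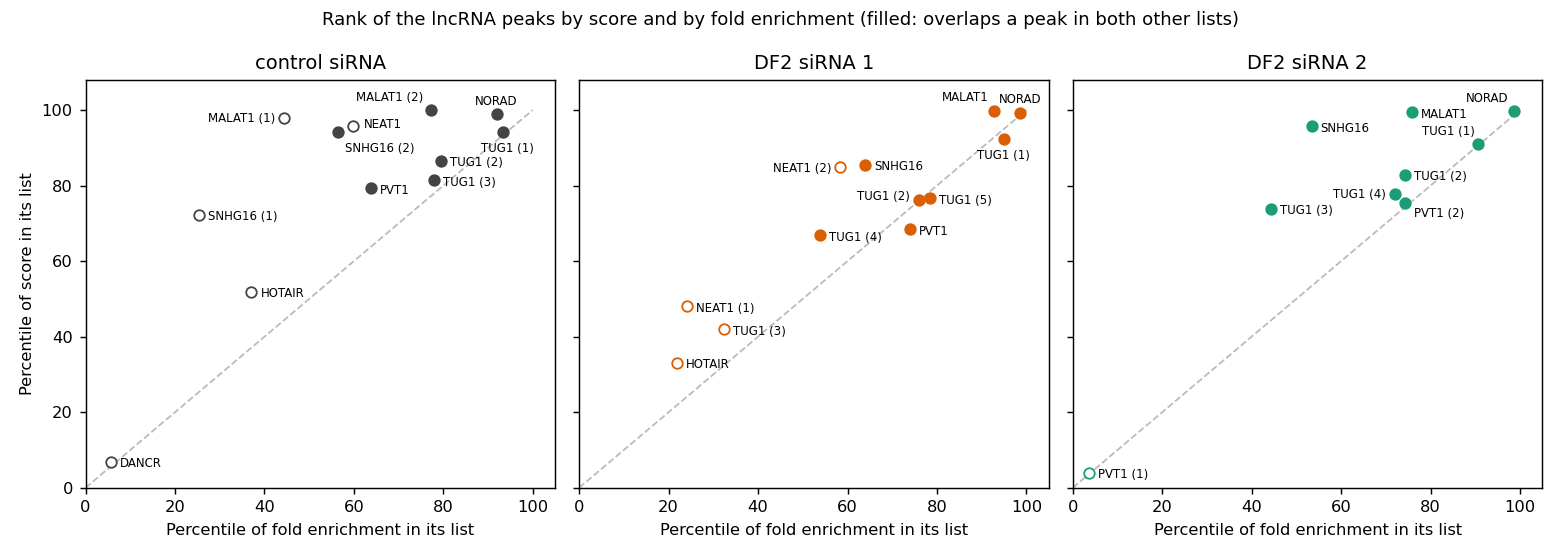
Each lncRNA peak at its percentile by fold enrichment (x axis, %) and by score (y axis, %) within its own list, with 1 panel per list. Filled points overlap a peak in both other lists and open points do not, numbers in brackets count a gene's peaks from the 5′ end, and the dashed line marks equal percentiles. All 12 control points and all 9 siRNA 2 points lie above the line, with 9 of 12 for siRNA 1.

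Ranked by score, the lncRNAs stood higher than ranked by fold. The strongest peak of each gene had a median score percentile of 94.1 in control (8 genes), 85.5 with siRNA 1 (7 genes) and 95.7 with siRNA 2 (5 genes), where that of all genes was 60.1, 59.5 and 59. By fold the medians were 61.8, 73.9 and 75.9, against 61.4, 60.2 and 59.9 for all genes. The medians of the lncRNAs cover different genes in each list and measure no change. Genes whose strongest peak was annotated as non-coding alone had median score percentiles of 24.5, 19.7 and 19.5. Their median fold percentiles were 38.3, 24.1 and 29.7, also below those of the lncRNAs. The score percentile exceeded the fold percentile for 12 of 12 control peaks, 9 of 12 with siRNA 1 and 9 of 9 with siRNA 2, while this held for 46.8%, 44.6% and 47.9% of all peaks and for 20.2%, 23.4% and 24.3% of peaks annotated as non-coding alone. These are descriptions, since the peaks of a gene share it and no list has a replicate. All lncRNA peaks were annotated as ncRNA by the authors. A covered width that was a multiple of 200 bases was held by 10 of 12, 12 of 12 and 9 of 9. Among all peaks the shares were 86.7%, 92.7% and 90.4%, so this is a trait of the lists and not of the lncRNAs. Differences of 200 bases between lists are thus the smallest usual step.

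Whether control peaks of the lncRNAs were absent from the siRNA lists more often than others was asked by counting overlaps. A peak counted as found when a same-strand peak of the other list shared 1 base or more with it. Of the 12 control peaks, 3 had no siRNA 1 overlap (the 5′ peaks of MALAT1 and SNHG16, and DANCR), where 32.9% of all control peaks had none. With siRNA 2, 5 of 12 had none (those 3, NEAT1 and HOTAIR), against 26.6% of all control peaks. Among control peaks annotated as non-coding alone, the shares were 58.3% and 40.7%. With 12 peaks of 8 genes, neither count is a result about the lncRNAs. The same control list enters both comparisons. In the other direction, 1 of 12 siRNA 1 peaks (the 5′ NEAT1 peak) and 1 of 9 siRNA 2 peaks (the 5′ PVT1 peak) had no control overlap, where 18.5% and 13.9% of all peaks of those lists had none.

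Counted by gene, 1 of the 8 lncRNAs (DANCR) had a control peak and none with siRNA 1, against 22.2% of genes with a control peak. With siRNA 2, 3 of 8 had none (NEAT1, HOTAIR and DANCR), against 17.7%. DANCR alone had none with either siRNA, 1 of 8 against 13.6%. At an FDR under 0.01, 7 lncRNAs remained in control (without DANCR), 6 with siRNA 1 (without HOTAIR) and 5 with siRNA 2. With 8 genes, these counts are not a result about the lncRNAs either.

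**Figure D3:**
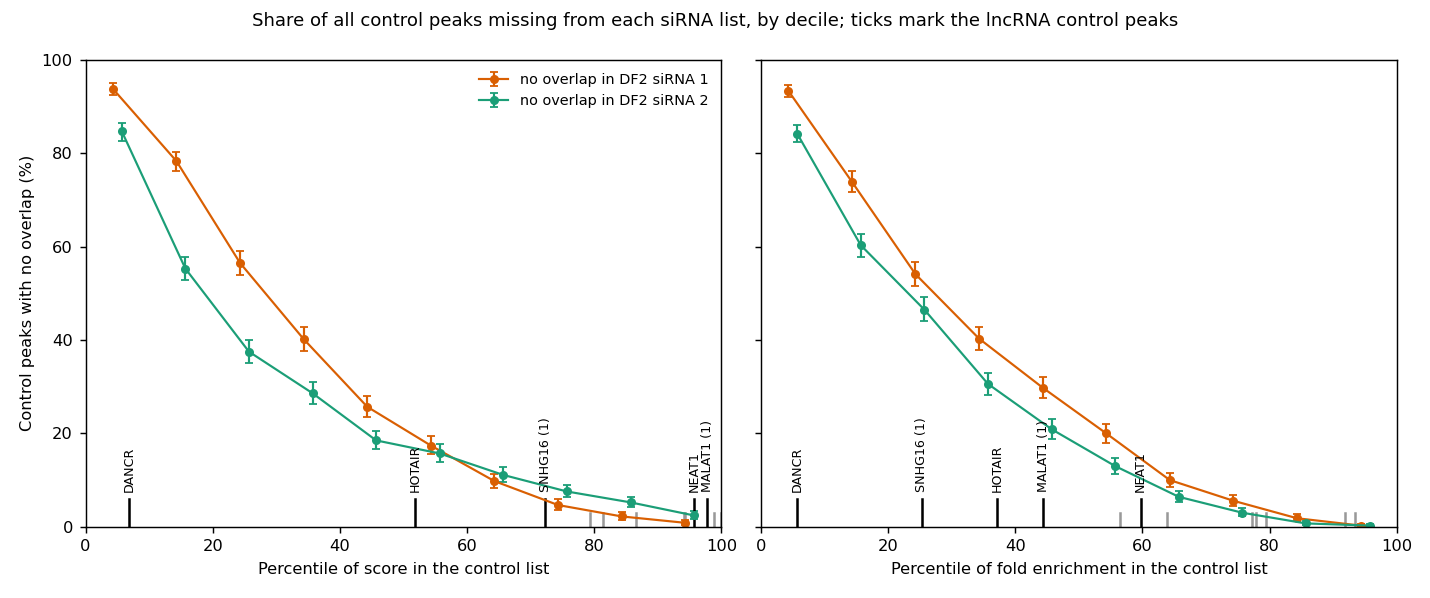
Share of all control peaks (y axis, %) that overlap no peak of the siRNA 1 or siRNA 2 list, by decile of the control list ranked by score (left) or fold enrichment (right), with 95% exact binomial intervals for counting error. Ticks on the x axis mark the 12 lncRNA control peaks, long and named where siRNA 2 has no overlap. The 5′ MALAT1 peak and NEAT1 lie at percentiles 97.8 and 95.7 by score but 44.4 and 59.7 by fold, where missing peaks are more common.

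The absent control peaks of the lncRNAs were set beside all control peaks of the same decile. For NEAT1, 2.42% of the top decile by score had no siRNA 2 overlap, but 13% of its decile by fold and 23% of its decile by FDR. For HOTAIR the same shares were 15.7%, 30.6% and 45%. For the 5′ SNHG16 peak, absent with both siRNAs, the share absent with both was 4.01% by score, 37.5% by fold and 62.6% by FDR. For these 3 peaks absence was least common among peaks of like score. For DANCR, absent with both siRNAs, it was the other way, with 82.1% by score, 81.3% by fold and 62.6% by FDR. The lncRNA control peaks absent with siRNA 2 had control fold percentiles of 5.67 to 59.7, and those found 56.4 to 93.4. By FDR the ranges were 7.03 to 46.6 and 43.6 to 89.9. They crossed only where the shared SNHG16 peak (56.4 by fold, 43.6 by FDR) lay below the absent NEAT1 peak (59.7 and 46.6). Why peaks were absent was not tested.

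In covered bases, the control list held the most sequence, for these lncRNAs as for all peaks together. The 8 genes had 11478 covered bases in control, 8600 with siRNA 1 and 7400 with siRNA 2. All lists together covered 12078, of which 6800 were in all 3, 2878 in control alone, 400 in siRNA 1 alone and 200 in siRNA 2 alone. The siRNA lists shared no covered base outside the control peaks. TUG1 gave 1193 and DANCR 485 of the bases seen in control alone, and MALAT1 400. The lists as a whole also differed in size, with 12.1 Mb covered in control, 9.12 with siRNA 1 and 10.1 with siRNA 2.

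**Figure D4:**
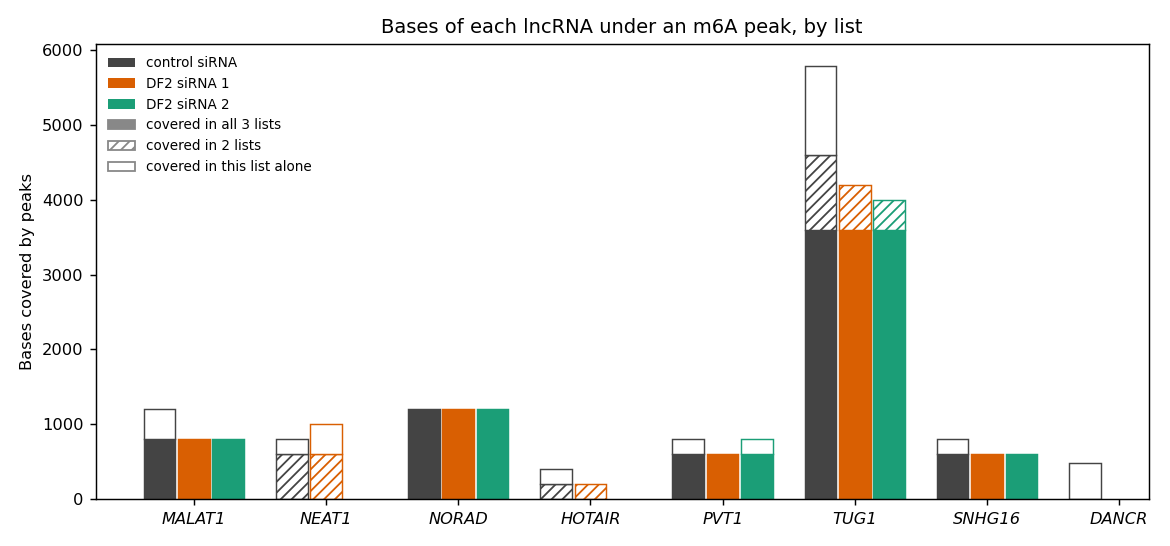
Bases under m6A peaks (y axis) of each lncRNA in each list, with 1 bar per list. Solid parts were covered in all 3 lists, hatched parts in 2 and open parts in that list alone, and the TUG1 bars of 5793, 4200 and 4000 bases are the tallest.

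Named lists of other lncRNAs, 4 in all, give these values a context. Among all 18330 RefSeq genes of lncRNA biotype, 437 had a peak in any list and 395 in control. Among all 59778 RefSeq genes the counts were 9492 and 8428. The named lists were picked by hand, so their counts are no result about a class of lncRNAs. Of 24 other snoRNA hosts 3 had a peak in any list, SNHG7, SNHG29 and SNHG15, and the highest control score percentile among them was 13 (SNHG29). SNHG16 stood at 94.1, but DANCR, the other snoRNA host among the members, stood at 6.91. GAS5, ZFAS1 and SNHG1, other snoRNA hosts, had no peak in any list. Of 14 nuclear or chromatin-linked lncRNAs 6 had a peak in control, 5 with siRNA 1 and 5 with siRNA 2. CHASERR, a regulator of the neighbouring CHD2 gene, ranked first among them, at score percentile 91.9, 63.4 and 66.6 with folds of 48.2, 17.9 and 15.1. JPX, an X-linked lncRNA, had control and siRNA 2 peaks (percentiles 60.8 and 33.2) and none with siRNA 1. FIRRE, LINC-PINT and FTX were listed at control percentiles 50.9, 44.3 and 34.3 and had peaks in all lists, CDKN2B-AS1 (percentile 11) in control alone and HOTAIRM1 in siRNA 1 alone.

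Of 12 microRNA host lncRNAs 4 had a control peak, and 3 of them, MIR22HG, MIR4435-2HG and MIR210HG, had one in every list (control percentiles 48.2, 38.5 and 28.6), while DLEU2 (8.04) had one in control alone. Of 22 cytoplasmic or cancer-linked lncRNAs 14 had a peak in control, 12 with siRNA 1, 11 with siRNA 2 and 11 in all lists. The 14 include LINC00998, counted under its current RefSeq symbol SMIM30, with a control peak (percentile 37.6) and none with either siRNA. Whether it is a lncRNA by biotype was not checked. FGD5-AS1 ranked first in this list of lncRNAs, at percentile 99.56, 96.7 and 98 with folds of 65.8, 59.4 and 43.5. In control this lay between NORAD (98.8) and MALAT1 (99.97). With siRNA 1 it was below both (99.1 and 99.85), as with siRNA 2 (99.8 and 99.4). After FGD5-AS1 came THAP9-AS1 at 95.2, 82.3 and 88.8, EBLN3P at 92, 84.5 and 77.9 and TINCR at 84.3, 84.2 and 88. OIP5-AS1, HCG18, TMPO-AS1 and HCP5 had control percentiles of 79.1, 74.2, 57.7 and 57.4 and a peak in every list. Of RefSeq genes of lncRNA biotype apart from the members, 388 had a peak in control, 256 with siRNA 1, 316 with siRNA 2 and 219 in all lists. Of the 388, 22.4% had a peak with neither siRNA, against 11.3% of all RefSeq genes with a control peak and DANCR alone, 1 of 8, here.

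Among those 219 lncRNAs, the one nearest in its strongest-peak score percentiles was found for each of the 5 members with peaks in all 3 lists, by the sum of absolute differences over the 3 lists. For both MALAT1 and NORAD it was LINC00473, at percentiles 99.3, 97.9 and 98.7 (sums of 3.35 and 2.82). For TUG1 it was ENTPD1-AS1 (5.83), for SNHG16 LINC00958 (7.06) and for PVT1 LINC00667 (8.1). Likeness over 3 values of lists that differ in scale is a description and says nothing of shared function.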

How the data were processed

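There were 6 libraries, an input and an m6A-IP under each of 3 conditions. Per the submitters' processing notes, the authors used HISAT2 (no version) and hg38. For the peak caller and the annotation release, the sources used here name none. Each list is named as a merge of r1 and r2, while the labels show a single m6A-IP per condition. The score of a peak is the authors' whole number per the file headers, whose definition the sources used here do not give. The fold enrichment (ratio) and the −log10 FDR are the authors' values per the file headers. The deposited peaks all had an FDR below 0.05.

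Block starts were raised by 1 and blocks of minus-strand peaks reordered. Same-strand peaks of a pair of lists counted as shared when they had 1 base or more in common. Percentiles are ranks within a list, with ties at their mean rank. Gene spans, biotypes and start windows came from RefSeq GRCh38.p14, whose coordinates were used with the hg38 lists. Of 10786 symbols 8843 were current, 659 synonyms and 1284 unmatched. Overlaps were tested on simulated data, where 2000 of 2000 peaks got their planted answer. Shares have 95% exact binomial (Clopper-Pearson) intervals, which cover counting error only. Python 3.11.15, pandas 2.3.3, numpy 2.4.6 and scipy 1.17.1 were used.

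The members and lists were chosen with earlier results of these data known. Named genes were the 8 members, listed lncRNAs with a peak (up to 8 per list by control score), the nearest lncRNA of each member with peaks in all 3 lists, neighbours whose peaks overlap a member's span, and YTHDF2. DDX21 and SMIM30 were named after their values were seen. Alternatives were another overlap rule, strand, FDR limit, ranking and gene assignment. Sequence inside the peaks beyond the start windows was not analysed here.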

Additional observations from a re-analysis of the deposited data

How the results depend on the processing

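A count or width was taken to have moved when it differed by more than 1.5 times. A percentile was taken to have moved when it left its 95% exact binomial interval, which is narrow in lists of this size. A rank, or a median of ranks, is no binomial sample, so this limit only sets a label and measures no error. By these limits 16 of the alternatives for summary values moved and 41 did not, and for single genes' percentiles 75 moved and 5 did not. Ranked by fold, the median strongest-peak percentile of the lncRNAs was 61.8 in control, 73.9 with siRNA 1 and 75.9 with siRNA 2. By FDR it was 51.1, 71.9 and 68.2, among the strongest peaks of genes 91.5, 80.1 and 93.8, and among non-coding peaks 99.51, 97.7 and 99.51. In control the lncRNAs thus stood above all genes by score but hardly by fold, where the median of all genes was 61.4. With siRNA 1 and siRNA 2 they stood above all genes by fold as well (60.2 and 59.9). These medians cover 8, 7 and 5 genes, so they show no rise by fold. NEAT1, HOTAIR and DANCR, without a siRNA 2 peak, had control fold percentiles of 59.7, 37.1 and 5.67. The members with a peak in every list already had 56.4 to 93.4 in control. Genes with a non-coding strongest peak had fold medians of 38.3, 24.1 and 29.7, below the lncRNAs in each list. The cause was not tested. Counted from first to last base, introns included, the peaks spanned 97614, 53269 and 52069 bases, which follows from the construction. With peaks assigned by RefSeq gene span, which adds the short entries inside TUG1 and PVT1, 11 of 16 control peaks were found with siRNA 2. The 5′ MALAT1 control peak overlapped no peak of either siRNA list under any overlap rule tried. At an FDR under 0.01, members with a peak fell from 8 to 7 in control and from 7 to 6 with siRNA 1, and HOTAIR was no longer found with siRNA 1. The top 50% of peaks by score also gave 7 and 6. At an FDR under 0.01, 8 of 10 control peaks were found with siRNA 1 and 7 of 10 with siRNA 2. With 50% of each peak in common, 8 and 6 of 12 were. No paired analysis was possible because each condition has 1 merged list. Read depth is unknown, so the lower limit of what could be called in each list is not known, and neither replicate error nor RNA level can be read from these lists.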
